A study of Mus musculus with 8 samples.

Results

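The 7 genes described here belong to the pluripotency network and were measured in 2 mouse pluripotent states. These members, Pou5f1, Pou2f1, Sall4, Sall1, Zfp281, Utf1 and L1td1, were chosen by name in the deposited expression tables, where each of the 7 members is listed at 1 locus among 22987 such genes, and all 7 belong to the 11556 genes tested. POU proteins are transcription factors that bind the octamer ATGCAAAT through a bipartite DNA-binding domain. Pou5f1 encodes OCT4, which pairs with SOX2 on enhancers of pluripotent cells and is required for pluripotency. Pou2f1 encodes OCT1, a widely expressed relative that binds the same octamer. Sall4 and Sall1 encode zinc-finger factors that recruit the NuRD chromatin-remodelling complex, Zfp281 encodes a zinc-finger factor of GC-rich DNA linked to the exit from the naive state, Utf1 encodes a chromatin-bound factor of undifferentiated cells, and L1td1 encodes an RNA-binding protein derived from a LINE-1 transposon.

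Polyadenylated RNA was sequenced from 4 libraries of epiblast stem cells (mEpiSC), which model the primed epiblast after implantation, and 4 of embryonic stem cells (mESC), which model the naive inner cell mass. The epiblast cells, grown with FGF2, were of 3 lines: library mEpiSC 1 is EpiSC5, mEpiSC 2 and 3 are EpiSC7, and mEpiSC 4 is EpiSC9. The embryonic stem cells, grown with LIF, were of 2 lines: mESC 1 and 2 are ESF122, and mESC 3 and 4 are ESF175/1. Cells of both states grew on irradiated mouse embryonic fibroblasts in medium with serum replacement and were separated from these feeders before lysis, with no genetic change named in the labels. Whether 2 libraries of a line are separate cultures is not stated, so the p-values describe library-to-library spread that may be technical. Growth factor, line and state change together in this design and cannot be told apart.

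Levels are in FPKM as deposited, fragments scaled to the length of the transcript and to the mapped fragments of the library, so they can be compared between genes. An estimated 24800000 to 38600000 fragments stand behind each library. A log2 fold change is the mEpiSC minus the mESC mean of log2(FPKM + 1), from limma over all 11556 genes, with 95% intervals and Benjamini-Hochberg adjusted p-values that pass below 0.05. The median gene had a log2 fold change of 0.08. The summed FPKM of 7 naive markers ran from 4.47 to 10.2 in mEpiSC libraries and from 174 to 339.8 in mESC libraries, and all 7 fell. Of 7 primed markers 5 rose and 0 fell (3 to 5 rose over the 20 alternatives, and 1 fell with a block per replicate number). Fibroblast markers, 15 in all, summed to 99.2 to 547 FPKM in mEpiSC libraries and 13.1 to 298 FPKM in mESC libraries, and 5 of 14 tested rose. That count was 2 without mESC 3, 10 without mESC 1 and 14 in the paired fit, which has a block per replicate number. All 5 tested primitive endoderm markers rose (3 without mESC 3, and 1 to 5 over the 20 alternatives). Of the tested trophoblast markers 1 of 2 fell, and 1 of 2 tested neural markers rose, a call lost in 9 of 20 alternatives. The trophoblast genes Cdx2, Elf5 and Hand1 were under 1 FPKM in every library. Along the second principal component, which held 16.9% of the variance, mEpiSC 4 (48.9) and mESC 4 (33.5) stood apart from the other libraries (-20.6 to -8.8), so the state differences of members for which replicate 4 decides the sign or the call are also given without it.

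Between the states, 2 of the 7 members fell and 0 rose by limma at an adjusted p under 0.05. Of all genes tested 37.3% passed, 14.2% lower and 23.1% higher. At an unadjusted p under 0.05 in limma, 3 members were lower and 0 higher. The share of all genes at that threshold was not taken, so this count is no result about the members. Voom on implied fragments gave 2 members lower and 0 higher, against 1661 lower and 2264 higher among all 11556 genes. The members that fell were Utf1 and L1td1, and they were also the only members of the 7 whose mEpiSC and mESC libraries did not overlap, against 37.1% of all genes without overlap, 14.9% lower and 22.2% higher. Both calls were lost when the libraries were first averaged within each of the 5 lines, a form in which 865 genes rose and 557 fell. Median ratio scaling brought the median gene to -0.01 and quantile normalization to -0.02, which changed the split over all genes from 2665 higher and 1640 lower to 2291 higher and 2199 lower, and to 2188 higher and 2207 lower. A lower value in bulk RNA cannot tell fewer cells that express a gene from less RNA per cell.

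**Figure D1:**
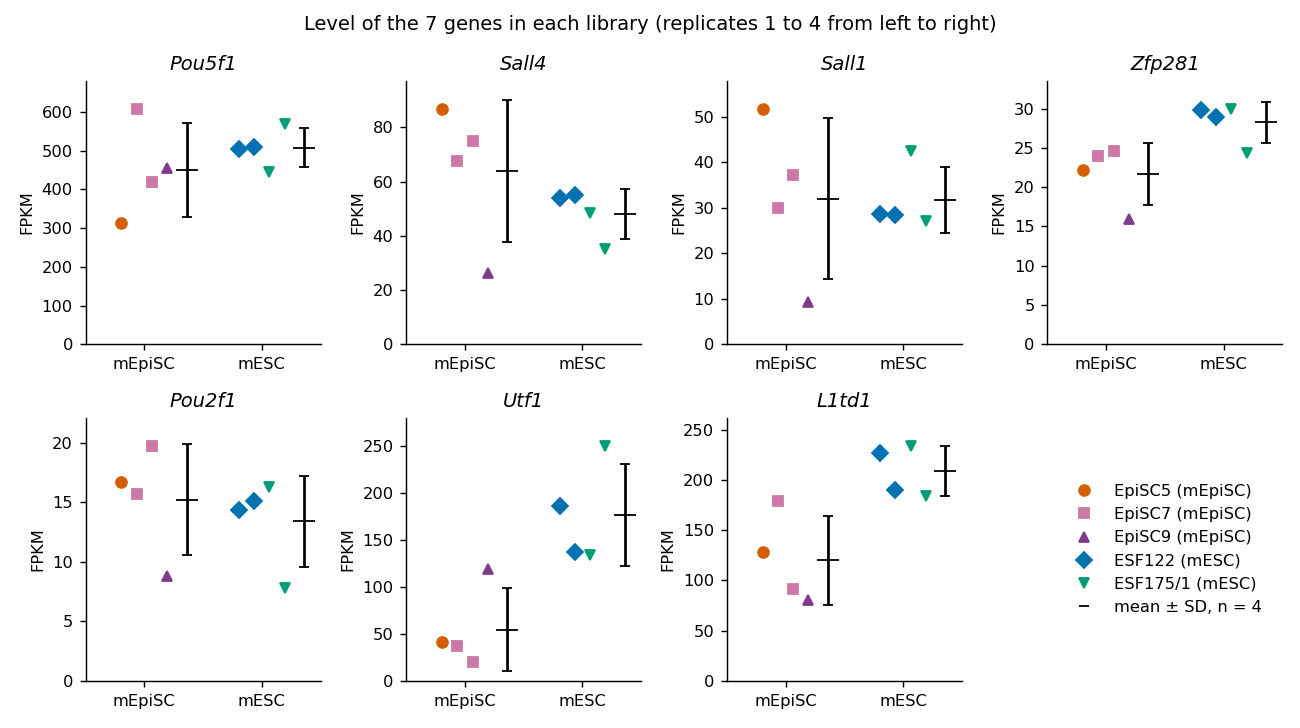
Level of each of the 7 genes in FPKM (vertical axes, linear, from 0) in the 4 mEpiSC and 4 mESC libraries, with the symbol giving the cell line and the bar the mean ± SD (n = 4). The 2 states separate for Utf1 (at most 119 FPKM in mEpiSC, at least 134 FPKM in mESC) and L1td1, and the purple EpiSC9 library is the lowest mEpiSC point for Sall4, Sall1, Zfp281, Pou2f1 and L1td1.

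Pou5f1 was the most abundant of the 7 genes in every library and differed between the states by less than the spread of its mEpiSC libraries. Its transcript (chr17:35642976-35647722 as listed, mm9) had 314, 608, 420.0 and 456 FPKM in mEpiSC 1 to 4. In mESC 1 to 4 it had 504, 510.1, 446 and 570.2 FPKM. The EpiSC5 library was the lowest of the 8 and an EpiSC7 library the highest, and all 4 mESC libraries lay within the mEpiSC range. The means were 449.6 ± 121 FPKM in mEpiSC and 508 ± 50.6 FPKM in mESC (SD, n = 4 each). With a log2 fold change of -0.21 (SE 0.20, 95% interval -0.65 to 0.24, limma adjusted p = 0.439), a difference of 1 log2 unit either way lies outside the interval, as it does for 62.2% of genes tested. Pou5f1 ranked 32nd to 67th by FPKM among the 22987 genes across the libraries. Leaving out any library kept the value between -0.37 and -0.05. Of the 50-base windows of its transcripts, 10.1% also occur in transcripts of other genes, Gm19553 and Gm5712, between which the deposited values may divide reads.

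The 250 bases upstream of the first listed Pou5f1 start (RefSeq, GRCm38.p6, chr17:35505782-35506031, plus strand, 5′ to 3′) are shown because this gene did not pass the state test, while the 2 genes shown after it fell. Capitals mark a GC box, GGGCGG, the sequence known to bind SP1, and a nuclear receptor half-site, AGGTCA.
Pou5f1 upstream: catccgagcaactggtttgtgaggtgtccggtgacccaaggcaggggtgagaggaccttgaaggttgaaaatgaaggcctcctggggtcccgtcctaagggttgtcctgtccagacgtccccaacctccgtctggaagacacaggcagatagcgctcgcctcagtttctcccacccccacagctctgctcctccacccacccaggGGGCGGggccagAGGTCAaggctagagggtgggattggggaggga
Counted from the start, the GC box lies at -45 to -40 and the half-site at -33 to -28. Searched on both strands, GGGCGG occurs in 32.7% and AGGTCA in 14.0% of 32851 upstream windows of the same length. The octamer ATGCAAAT, present in 1.6% of these windows, is in none of the windows of the 6 members that have an entry, all but Sall4. These matches are descriptions of letters, and binding was not measured.

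Pou2f1, the other octamer-binding factor of the set, was the least abundant member on average and did not pass the test between states. Its locus (chr1:167795284-167932765) gave 16.7, 15.7, 19.7 and 8.77 FPKM in mEpiSC 1 to 4. The mESC 1 to 4 libraries had 14.4, 15.1, 16.3 and 7.82 FPKM. In both states replicate 4 had the lowest value, and the other 6 libraries lay between 14.4 and 19.7 FPKM. Means were 15.2 ± 4.63 FPKM in mEpiSC and 13.4 ± 3.81 FPKM in mESC, a log2 fold change of 0.16 (SE 0.28, interval -0.47 to 0.80, limma adjusted p = 0.679). The sign turned without mESC 4 (-0.06) and with the fibroblast marker mean as a covariate (-0.23). The listed Cd247 locus overlaps Pou2f1, and 21.0% of the 50-base windows of Pou2f1 transcripts also occur in Cd247, which itself had 0.614 ± 0.359 FPKM in mEpiSC and 0.0548 ± 0.0442 FPKM in mESC; strand use is not given, so reads at the overlap cannot be assigned.

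The FPKM ratio of Pou5f1 to Pou2f1 was 18.8 to 52.1 in mEpiSC libraries and 27.4 to 72.9 in mESC libraries, with overlap. Within the 15 POU genes listed, Pou5f1 alone made 91.0% to 94.6% of the summed FPKM in mEpiSC libraries and 93.0% to 95.3% in mESC libraries. Of the 15 genes 4 were tested, 1 rose and 0 fell, with a median log2 fold change of 0.04 against 0.08 for all genes. The gene that rose was Pou6f1, a homeodomain factor of the same family, with 3.49 ± 1.00 FPKM in mEpiSC and 1.88 ± 0.524 FPKM in mESC (log2 fold change 0.63, SE 0.20, limma adjusted p = 0.0347). That call was lost without any one of mESC 1, 2 and 3 or mEpiSC 2 and 3 (adjusted p up to 0.0953). It was also lost with median ratio scaling (0.0501), quantile normalization (0.162), a random block per line (0.127) and libraries averaged per line (0.158). Pou3f1, known as OCT6 and usually counted among primed-state factors, had 11.9 ± 4.40 FPKM in mEpiSC and 12.4 ± 2.38 FPKM in mESC (log2 fold change -0.09, adjusted p = 0.79, limma). Its sign turned without mESC 1 (0.02) or mEpiSC 1 (0.05), and with the fibroblast covariate (0.01).

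**Figure D2:**
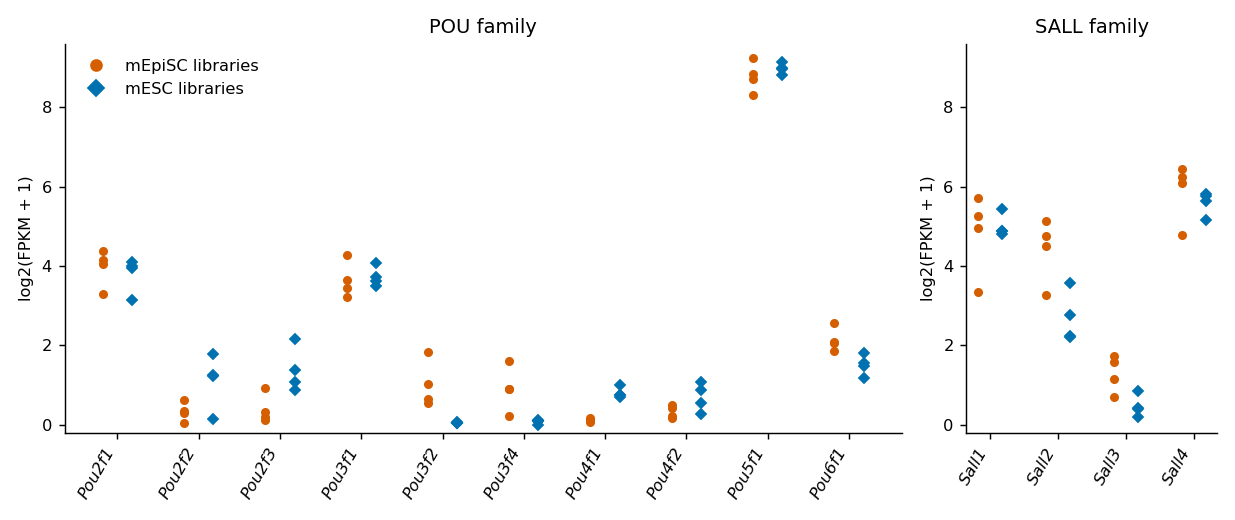
Levels of the POU genes (left) and SALL genes (right) that reached 1 FPKM in at least 1 library, shown for each library on the log2(FPKM + 1) scale, with mEpiSC points left of mESC points for each gene. Pou5f1 lies far above the other POU genes in all 8 libraries, and Sall2 is the SALL gene that rose, although its lowest mEpiSC value falls below the highest mESC value.

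Sall4 was low in the single EpiSC9 library and, with all libraries, did not pass between the states. The gene (chr2:168573831-168592701) had 86.7, 67.6, 74.8 and 26.4 FPKM in mEpiSC 1 to 4. It had 53.9, 55.1, 48.6 and 35.0 FPKM in mESC 1 to 4. The EpiSC5 and EpiSC7 libraries were above every mESC library, and EpiSC9 was below all of them. Means were 63.9 ± 26.2 FPKM in mEpiSC and 48.1 ± 9.23 FPKM in mESC, with a log2 fold change of 0.30 (SE 0.34, interval -0.48 to 1.07, limma adjusted p = 0.533). Without both replicate 4 libraries the value was 0.53 (adjusted p = 0.0108), and without mEpiSC 4 alone it was 0.67 (adjusted p = 0.0178). With the fibroblast marker mean as a covariate the sign turned to -0.24 (adjusted p = 0.629). Over all alternatives the adjusted p ran from 0.0108 to 0.84.

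Sall1, the paralogue whose protein can dimerise with SALL4, showed the same low EpiSC9 value and no state difference past the test. Its FPKM (chr8:91551142-91568061) were 51.7, 29.9, 37.25 and 9.22 in mEpiSC 1 to 4. In mESC 1 to 4 they were 28.6, 28.4, 42.6 and 27.2. EpiSC5 was the highest and EpiSC9 the lowest of the 8 libraries, so the mEpiSC libraries enclosed the mESC ones. The means were 32.0 ± 17.7 FPKM in mEpiSC and 31.7 ± 7.29 FPKM in mESC (log2 fold change -0.19, SE 0.44, interval -1.19 to 0.82, limma adjusted p = 0.774). The sign turned without mEpiSC 4 (0.30) and without both replicate 4 libraries (0.24). The interval of Sall4 reaches above 1 log2 unit and that of Sall1 below -1, so these libraries limit either change less tightly than for Pou5f1.

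The ratio of Sall4 to Sall1 FPKM was 1.68 to 2.87 in mEpiSC libraries and 1.14 to 1.94 in mESC libraries, with overlap. The ratio of Pou5f1 to Sall4 was 3.62 to 17.3 in mEpiSC libraries and 9.19 to 16.3 in mESC libraries. Of the 4 SALL genes, 3 were tested, 1 rose and 0 fell. Sall2, the family member that rose, had 22.6 ± 10.6 FPKM in mEpiSC and 6.03 ± 3.46 FPKM in mESC (log2 fold change 1.72, SE 0.43, limma adjusted p = 0.0135). Single values of Sall2 were 21.8, 25.9, 34.0 and 8.62 FPKM in mEpiSC 1 to 4, and 5.82, 11.0, 3.69 and 3.60 FPKM in mESC 1 to 4. Its call was lost with the fibroblast covariate and with libraries averaged per line (highest adjusted p 0.127). Sall3 was under the filter on low values, at 1.54 ± 0.749 FPKM in mEpiSC and 0.403 ± 0.287 FPKM in mESC.

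Zfp281 was lower in mEpiSC on average, a difference that did not pass the test. The gene (chr1:138521477-138526968) had 22.2, 24.0, 24.6 and 16.0 FPKM in mEpiSC 1 to 4. Against these, mESC 1 to 4 had 29.8, 29.0, 29.9 and 24.3 FPKM. The groups overlapped by a single pair: mEpiSC 3 lay just above mESC 4. Means were 21.7 ± 3.95 FPKM in mEpiSC and 28.3 ± 2.66 FPKM in mESC, a log2 fold change of -0.38 (SE 0.15, interval -0.72 to -0.03, unadjusted p = 0.035, limma adjusted p = 0.0803). In the paired fit the adjusted p was 0.0224. It also passed with median ratio scaling (-0.48, adjusted p = 0.0481), with the fibroblast covariate (-0.56, adjusted p = 0.0405) and without both replicate 4 libraries (-0.31, adjusted p = 0.0213). A contrast of line means, judged by the spread within lines, passed as well (-0.44, adjusted p = 0.0176). It did not pass with libraries averaged per line (-0.44, adjusted p = 0.228) or with a random block per line (-0.41, adjusted p = 0.135). Over the 20 alternatives the adjusted p ran from 0.0176 to 0.247 and the value was negative in all of them.

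**Figure D3:**
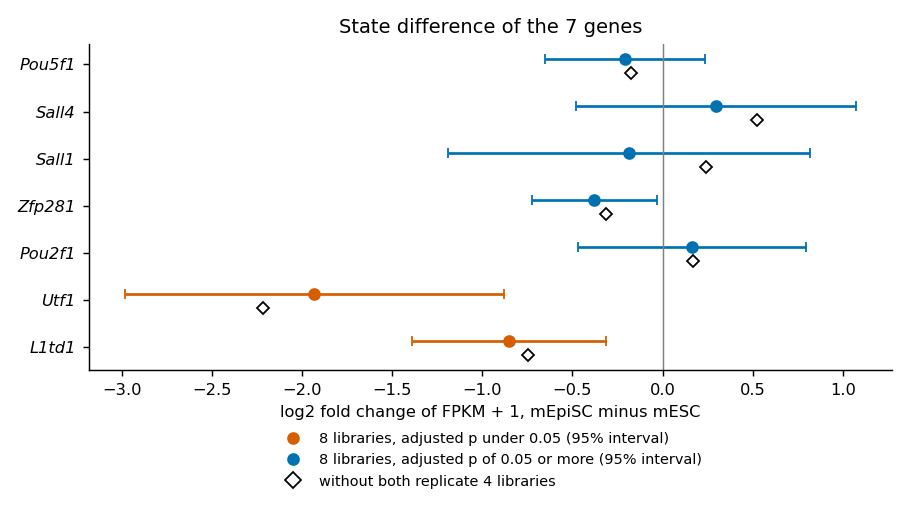
Log2 fold change of FPKM + 1, mEpiSC minus mESC, for the 7 genes (points, with 95% limma intervals over 8 libraries) and the same value without both replicate 4 libraries (open diamonds). Utf1 (-1.93) and L1td1 (-0.85) pass an adjusted p of 0.05, and for Sall1 the diamond lies on the other side of 0.

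Utf1 fell most of the 7 members. Its single short locus (chr7:147129754-147131011) gave 41.4, 37.5, 20.3 and 119 FPKM in mEpiSC 1 to 4. The mESC 1 to 4 libraries had 186, 138, 134 and 250.3 FPKM. No mEpiSC library reached the lowest mESC library, and replicate 4 was the highest of its group in both states. The mEpiSC mean of 54.5 ± 44.0 FPKM was 30.8% of the mESC mean of 177 ± 54.4 FPKM (SD, n = 4 each). The log2 fold change was -1.93 (SE 0.46, interval -2.98 to -0.88, limma adjusted p = 0.0112, lower in 4 of 4 libraries). The call was lost with the fibroblast covariate (-1.56, adjusted p = 0.0747) and with libraries averaged per line (-1.71, adjusted p = 0.118). Without both replicate 4 libraries the value was -2.22 (adjusted p = 0.00161), and over all alternatives the adjusted p ran from 0.000811 to 0.118. Relative to Pou5f1 in the same library, Utf1 stood at 0.0483 to 0.261 in mEpiSC and 0.270 to 0.439 in mESC, without overlap.

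The 250 bases upstream of the Utf1 start (RefSeq, GRCm38.p6, chr7:139943606-139943855, plus strand) are shown for the gene with the largest fall of the set. Capitals mark 4 GC boxes, the first pair of which overlaps by a base.
Utf1 upstream: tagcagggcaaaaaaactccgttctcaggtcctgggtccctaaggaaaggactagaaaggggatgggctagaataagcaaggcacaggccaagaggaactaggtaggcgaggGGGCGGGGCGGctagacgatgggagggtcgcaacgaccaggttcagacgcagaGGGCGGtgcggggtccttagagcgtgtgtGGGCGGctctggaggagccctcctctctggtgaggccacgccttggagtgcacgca
They begin at positions -138, -133, -85 and -56 counted from the transcript start. No half-site or octamer was found in these letters.

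L1td1 also fell in mEpiSC but stayed among the abundant transcripts. The gene (chr4:98393444-98405177) had 129, 179, 91.9 and 81.0 FPKM in mEpiSC 1 to 4. It had 226, 190.2, 234 and 184 FPKM in mESC 1 to 4. The highest mEpiSC library, an EpiSC7 library, stood just under the lowest mESC library, so the groups were separate by a narrow margin. The mEpiSC mean of 120.1 ± 44.3 FPKM was 57.6% of the mESC mean of 209 ± 25.1 FPKM. This is a log2 fold change of -0.85 (SE 0.24, interval -1.39 to -0.31, limma adjusted p = 0.0211). The call was lost without mESC 1 (adjusted p = 0.0553), mESC 3 (0.0619) or mEpiSC 3 (0.062), and when the line entered as a random block (0.0826). Without both replicate 4 libraries the value was -0.75 (adjusted p = 0.038). Averaged per line, it was -0.91 (adjusted p = 0.072), and over all alternatives the adjusted p ran from 0.00565 to 0.0826. The ratio of L1td1 to Pou5f1 was 0.177 to 0.409 in mEpiSC libraries and 0.323 to 0.524 in mESC libraries.

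The 250 bases upstream of L1td1 (RefSeq, GRCm38.p6, chr4:98726504-98726753, plus strand) belong to the other gene that fell. They hold none of the 4 motifs searched, which were the octamer, the half-site, the GC box and CCCTCCCCC, a GC-rich motif linked to ZFP281 that occurs in 4.65% of windows.
L1td1 upstream: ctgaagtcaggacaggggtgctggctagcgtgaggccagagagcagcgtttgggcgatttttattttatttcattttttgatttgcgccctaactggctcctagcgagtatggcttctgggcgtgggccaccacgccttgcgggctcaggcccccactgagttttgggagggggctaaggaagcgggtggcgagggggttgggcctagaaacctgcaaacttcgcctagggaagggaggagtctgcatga
Among the 3 windows shown, the half-site occurs in that of Pou5f1 and the GC box in those of Pou5f1 and Utf1.

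By mean FPKM in mEpiSC the order of the 7 genes was Pou5f1, L1td1, Sall4, Utf1, Sall1, Zfp281 and Pou2f1. In mESC it was the same except that Utf1 (177 FPKM) stood above Sall4 (48.1 FPKM), without overlap. In mEpiSC the libraries of Sall4 (63.9 FPKM) and Utf1 (54.5 FPKM) overlapped. The range of L1td1 overlapped that of Sall4 in mEpiSC and that of Utf1 in both states, and Sall4 overlapped Sall1 in both states. Compared within the same library, L1td1 was above Sall4 and Sall4 above Sall1 in every library. Utf1 was above L1td1 in mEpiSC 4 (119 against 81.0 FPKM) and mESC 4 (250.3 against 184 FPKM), and below it in the other libraries. Utf1 overlapped Sall1 in mEpiSC. Sall1 (32.0 FPKM in mEpiSC) and Zfp281 (21.7 FPKM in mEpiSC) overlapped in both states. Zfp281 and Pou2f1 overlapped in mEpiSC and not in mESC, and Zfp281 was the higher of them in every library. The fragments implied by the deposited intervals ran from 875 to 42674 for a member in a library.

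The spread between mEpiSC libraries rested in part on replicate 4. With all libraries the coefficient of variation of Utf1 was 80.6% in mEpiSC and 30.7% in mESC. Without replicate 4 of either state it was 34.0% in mEpiSC and 19.1% in mESC. For Sall1 it was 55.3% in mEpiSC and 23.0% in mESC with all libraries, and 28.0% in mEpiSC and 24.5% in mESC without replicate 4. For Sall4 it was 41.0% in mEpiSC and 19.2% in mESC with all libraries, and 12.7% in mEpiSC and 6.59% in mESC without replicate 4. Pou5f1 did not follow this, at 27.0% in mEpiSC and 9.97% in mESC with all libraries, and 33.2% in mEpiSC and 7.24% in mESC without replicate 4. The median of all genes tested was 20.5% in mEpiSC and 18.7% in mESC with all libraries, and 12.7% in mEpiSC and 12.3% in mESC without replicate 4. No test was made of these spreads. The mEpiSC group holds 3 lines and the mESC group 2.

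Between the 3 mEpiSC lines, Sall4 and Sall1 passed an F test in a fit with 1 mean per line, which 2.6% of all genes passed. For Sall4 the log2 difference was -1.39 for EpiSC9 minus EpiSC7 and 0.28 for EpiSC5 minus EpiSC7 (limma adjusted p = 0.0432). For Sall1 the differences were -1.75 and 0.62 (adjusted p = 0.0328). EpiSC9 is thus the low line for both SALL genes, but it is a single library and the only mEpiSC library numbered 4, so line and replicate number cannot be told apart. Without mESC 1 or 2, or mEpiSC 2 or 3, neither call held (adjusted p 0.102 to 0.123 for Sall4 and 0.0783 to 0.0879 for Sall1). Without the filter on low values both were also lost (0.063 and 0.0591), and median ratio scaling ended the Sall4 call (0.0512). The other 5 members did not pass. Utf1 came nearest, with EpiSC9 above EpiSC7 by 2.07 on the log2 scale (adjusted p = 0.101), in the direction opposite to the SALL genes. Pou2f1 (limma adjusted p = 0.277 with all libraries) passed without mESC 3 or mESC 4, each of which leaves a single ESF175/1 library. Many more of all genes were called in those fits too, so this is no result about Pou2f1.

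Between the mESC lines, ESF175/1 minus ESF122, 0 members passed by limma, against 0.762% of all genes. Their adjusted p ran from 0.39 for Sall4 to 0.999 for L1td1. Mean levels were close: Pou5f1 had 508 FPKM in ESF175/1 and 507 FPKM in ESF122, and L1td1 had 209 FPKM in ESF175/1 and 208 FPKM in ESF122. Sall4 had 41.8 FPKM in ESF175/1 and 54.5 FPKM in ESF122, a log2 difference of -0.39 (SE 0.19). Without mESC 3, Sall4 and Pou2f1 passed, with mESC 4 then the only ESF175/1 library. Many more of all genes were called in that fit too, so this is no result about these members.

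Replicate 4 was the lowest of 4 libraries in both states for 5 members, Sall4, Sall1, Zfp281, Pou2f1 and L1td1, and for 18.2% of all genes tested. It was the highest in both states for Utf1 and for 25.5% of genes. Relative to the mean of the other 3 libraries of its state, replicate 4 had 0.346 times the Sall4 FPKM in mEpiSC and 0.665 times in mESC. For Sall1 this was 0.233 times in mEpiSC and 0.819 times in mESC. For Utf1 it was 3.60 times in mEpiSC and 1.64 times in mESC. Only Pou5f1 had replicate 4 neither lowest nor highest in mEpiSC, at 1.02 times the others there and 1.17 times in mESC. The fibroblast marker mean was also lowest in replicate 4 of each state, at 2.43 log2 units in mEpiSC 4 and 0.71 in mESC 4, and its part in these values was not tested.

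Genes that work with or downstream of the members were read from lists chosen with earlier results of these data known, so their counts are descriptions, to be read beside the 23.1% of all genes that rose and the 14.2% that fell. Among 7 known OCT4-SOX2 targets, 3 fell and 1 rose (0 rose in the paired fit), with a median log2 fold change of -1.46 against 0.08 for all genes. Zfp42, the naive marker REX1, had 0.193 ± 0.207 FPKM in mEpiSC and 130.1 ± 45.4 FPKM in mESC (log2 fold change -6.73, limma adjusted p = 1.02e-06). Fbxo15, an F-box gene long used as a reporter of pluripotency, fell (log2 fold change -4.74, adjusted p = 9.52e-05). Fgf4, the autocrine growth factor of mESC, fell (log2 fold change -3.74, adjusted p = 7.33e-05). Sox2 (-0.66, adjusted p = 0.115) and Nanog (-0.16, adjusted p = 0.739), partners of OCT4 in the core network, did not pass. Without mESC 2, Sox2 passed (-0.89, limma adjusted p = 0.0361), as it did in the contrast of line means (-0.80). The sign of Nanog turned without mEpiSC 4 (0.15) and without both replicate 4 libraries (0.24), and neither value passed. Lefty1, a Nodal antagonist, rose (1.76, adjusted p = 0.0408), a call lost in the paired fit (adjusted p = 0.0605) and without any one library other than mESC 4 or mEpiSC 4 (up to 0.104). It was also lost without a filter on low values (0.0639), with median ratio scaling (0.0542), a random block per line (0.12), libraries averaged per line (0.192) and the fibroblast covariate (0.17).

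Among nuclear receptors, SP factors and FOXD3, known to bind the Pou5f1 promoter or its enhancers, the 5 genes that passed were all nuclear receptors. So is every gene of this list but Sp1, Sp3 and Foxd3, so the makeup of the list accounts for much of this. Of the 13 listed genes 12 were tested, 3 rose and 2 fell, close to the shares over all genes. In the paired fit 3 rose and 4 fell, and over the 20 alternatives 0 to 5 rose and 2 to 5 fell. Esrrb, an orphan receptor of the naive network, had 0.927 ± 0.617 FPKM in mEpiSC and 58.7 ± 18.9 FPKM in mESC (log2 fold change -4.94, limma adjusted p = 7.6e-06). Rarg, a retinoic acid receptor, fell (-1.52, adjusted p = 0.000718). Nr2f1, the repressor COUP-TFI, had 1.10 to 4.75 FPKM in mEpiSC libraries and averaged 0.0759 FPKM in mESC libraries (log2 fold change 1.54, adjusted p = 0.00348). Nr5a2, the receptor LRH-1, had 0.0625, 0.114, 0.331 and 14.3 FPKM in mEpiSC 1 to 4, and 4.52, 6.40, 11.9 and 11.4 FPKM in mESC 1 to 4. Its groups overlapped through mEpiSC 4 alone. Over all libraries it did not pass (-2.02, limma adjusted p = 0.0768), and without mEpiSC 4 it was lower in mEpiSC (-2.95, adjusted p = 0.000404), as in the paired fit (adjusted p = 0.0326). Sp1 did not pass (-0.30, adjusted p = 0.054; 0.037 in the paired fit), nor did Sp3 (-0.20, adjusted p = 0.143).

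Of the 13 tested subunits of NuRD, the complex that SALL4 recruits, 3 rose and 3 fell, with a median of -0.01. Both counts lie near what the shares over all genes give. Over the 20 alternatives 0 to 4 rose and 1 to 3 fell, with 0 higher and 1 lower when the line entered as a random block, and 0 higher without mEpiSC 3. Mta3, a metastasis-associated subunit, fell to 21.3 ± 1.78 FPKM in mEpiSC, against 48.3 ± 4.19 FPKM in mESC (log2 fold change -1.15, limma adjusted p = 0.000179). This call held under all 20 alternatives. Chd3, a helicase subunit, rose (1.49, adjusted p = 0.0189), although not without mESC 3 or mEpiSC 3 (adjusted p up to 0.0554), with the random block (0.0552) or with the fibroblast covariate (0.139). Hdac2, a histone deacetylase, rose to 112 ± 11.7 FPKM in mEpiSC, against 76.0 ± 13.7 FPKM in mESC (log2 fold change 0.56, adjusted p = 0.0179), but not without mESC 1 or mEpiSC 3 (up to 0.0545) or with the random block (0.0508). Chd4, another helicase subunit, at 111 ± 30.9 FPKM in mEpiSC and 94.3 ± 17.2 FPKM in mESC, did not pass (0.19, adjusted p = 0.56).

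Of 7 genes linked to Zfp281, 2 rose and 2 fell (1 rose and 3 fell in the paired fit, and 0 to 2 rose over the alternatives), with a median of 0.10. Tet1, a 5-methylcytosine dioxygenase whose protein partners with ZFP281, had 8.83 to 24.4 FPKM in mEpiSC libraries and averaged 51.8 ± 15.6 FPKM in mESC (log2 fold change -1.66, limma adjusted p = 0.0033). Tet2, its relative, also fell (-1.56, adjusted p = 0.000822). Lefty2, a Nodal antagonist, rose to 65.8 to 565 FPKM in mEpiSC libraries (log2 fold change 2.08, adjusted p = 0.0231), a call lost without mESC 1, mESC 3 or mEpiSC 2 (up to 0.0614), with the random block (0.0667) and with the fibroblast covariate (0.122). Of the windows of Lefty1, 17.9% also occur in Lefty2. Of those of Lefty2, 11.6% occur in other transcripts, Lefty1 among them, so the values of these genes may divide reads. Zfp148, a paralogue of Zfp281, did not pass (0.18, adjusted p = 0.282).

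OCT1 has cofactors of its own, among them the SNAPc subunits of small nuclear RNA genes, and of 7 such genes 6 were tested, 1 rose and 1 fell. The subunits Snapc1 (0.57, limma adjusted p = 0.0415) and Snapc2 (-0.71, adjusted p = 0.0354) were those called, and leaving out a single library ended each call in 6 of 8 cases (adjusted p up to 0.113 and 0.0861). Over all 20 alternatives the adjusted p reached 0.281 for Snapc1 and 0.253 for Snapc2. In the LIN28 and let-7 axis, where L1TD1 is known as a LIN28 partner in human pluripotent cells, 2 of 6 genes rose and 0 fell by limma, and 4 rose and 1 fell in the paired fit. Lin28b, a let-7 biogenesis inhibitor, had 18.4 to 28.2 FPKM in mEpiSC libraries and averaged 13.7 ± 2.88 FPKM in mESC (log2 fold change 0.76, adjusted p = 0.011). Dis3l2, the exonuclease for uridylated let-7 precursors, rose (0.62, adjusted p = 0.019), not without mESC 1, mESC 3 or mEpiSC 3 (up to 0.0575), with the random block (0.0631) or with voom (0.0525). Lin28a, at 172 to 190.4 FPKM in mEpiSC libraries, did not pass (0.22, adjusted p = 0.354). With libraries averaged per line, of the genes named from these lists Zfp42, Fbxo15, Fgf4, Esrrb, Rarg, Mta3, Tet1 and Tet2 still passed. In that form Nr2f1, Chd3, Hdac2, Lefty1, Lefty2, Snapc1, Snapc2, Lin28b and Dis3l2 lost their calls.

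**Figure D4:**
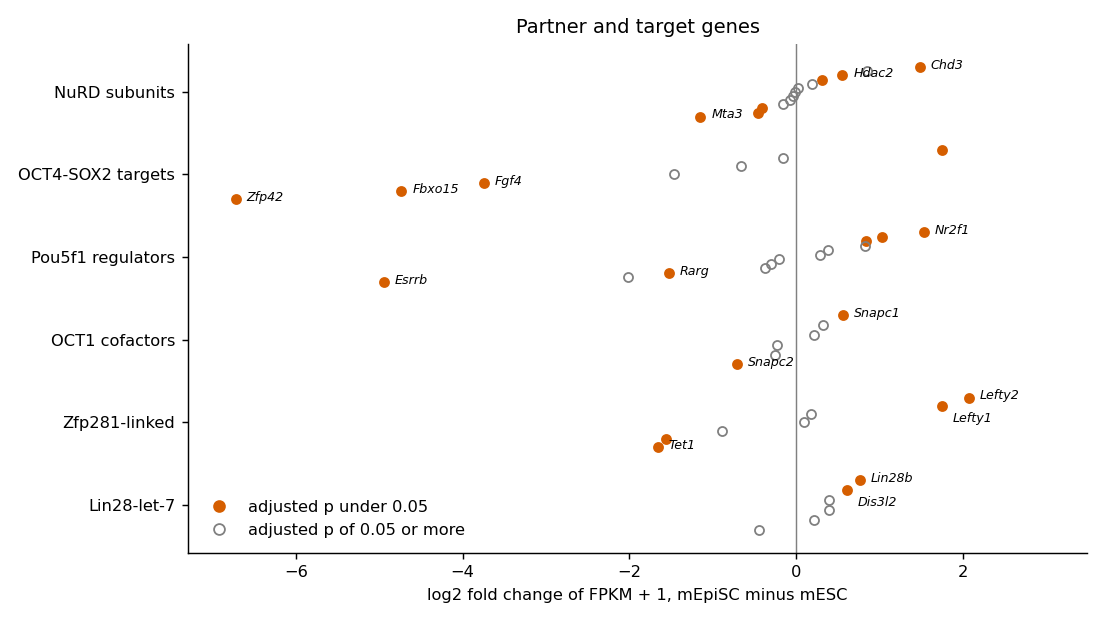
Log2 fold change of FPKM + 1, mEpiSC minus mESC, for every tested gene of the 6 partner and target lists (filled points pass a limma adjusted p of 0.05, open points do not). The lowest points are Zfp42 (-6.73), Esrrb (-4.94) and Fbxo15 (-4.74), while the NuRD list lies on both sides of 0.

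The genes of most similar profile were those with the smallest root mean square difference of centred log2(FPKM + 1) over the 8 libraries, among 7592 genes of at least 5 FPKM on average. This is a measure of likeness across libraries that share state, line and replicate number. For Pou5f1 these were Fcf1 (0.125), Tssc1 (0.128) and Dnajc8 (0.132), against a median of 0.402 over all candidates. Fcf1 shares 34.1% of its windows with Gm11221, so its values are uncertain. For Zfp281 they included Casp8ap2 (0.0468) and Ubqln4 (0.0501), with a median of 0.434. By this measure a gene of small spread lies near other genes of small spread.

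Sall4 was nearest to Purb (0.128), Phactr4 (0.144) and Samd4b (0.146), and Pou2f1 to Gpatch8 (0.0703), Rexo1 (0.0898) and Atxn2 (0.0918). Sall1 had less similar neighbours, Gga3 (0.269), Sfpq (0.313) and Foxp4 (0.344). Without both replicate 4 libraries, a repeat chosen after seeing the data, Purb was in 38th place for Sall4 and Gga3 in 596th for Sall1. Utf1 was nearest to Trib3 (0.280), a pseudokinase gene, then Trap1a (0.352) and Tfap2c (0.387), with a median of 1.22. Trib3 averaged 4.41 FPKM in mEpiSC and 19.8 FPKM in mESC and kept the first place without replicate 4. L1td1 was nearest to Zscan10 (0.172), a zinc-finger gene of pluripotent cells at 18.4 FPKM in mEpiSC and 37.4 FPKM in mESC, then Noc3l (0.194) and Eno1 (0.195), which shares 49.5% of its windows with copies such as Eno1b. Among the 7 members themselves, Sall4 and Pou2f1 were closest (0.255), ahead of Pou5f1 and Zfp281 (0.340) and of Sall4 and Sall1 (0.378).

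By position, the nearest tested genes on either side of the members moved in both directions or did not pass. Beside Pou5f1, the listed locus of Tcf19 lies 1.96 kb away. Tcf19 had 7.32 ± 2.30 FPKM in mEpiSC and 7.11 ± 1.41 FPKM in mESC (log2 fold change 0.01, limma adjusted p = 0.987), a sign that turned in 12 of 20 alternatives, by scaling among others. On the other side H2-Q7, a class I gene that shares 34.9% of its windows with other transcripts and is therefore uncertain, was higher in mEpiSC (2.32, adjusted p = 3.75e-05). Around Sall4, Zfp64 fell to 8.99 ± 0.934 FPKM in mEpiSC, against 19.6 ± 3.35 FPKM in mESC (-1.03, adjusted p = 0.000882), and Atp9a did not pass (-0.18, adjusted p = 0.373). Tox3, 1203 kb from Sall1, rose (1.70, adjusted p = 0.0114), a call lost with the fibroblast covariate (0.0844) and with libraries averaged per line (0.126). Cyld on the other side rose at the edge of the threshold (0.39, adjusted p = 0.0483). Cyld lost its call in 15 of 20 alternatives, among them the paired fit (adjusted p = 0.063) and without any one library other than mESC 2 (up to 0.124).

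Next to Zfp281, Gm19705 had 0.493 ± 0.0862 FPKM in mEpiSC and 6.43 ± 1.21 FPKM in mESC (-2.30, limma adjusted p = 1.83e-05), while Kif14 did not pass (-0.24, adjusted p = 0.217). Next to Pou2f1, Dusp27 had 0.652 ± 0.368 FPKM in mEpiSC and 7.60 ± 3.07 FPKM in mESC (-2.31, adjusted p = 0.000897), while Creg1 did not pass (0.15, adjusted p = 0.595), with its sign turned by quantile normalization (-0.09). The neighbours of Utf1, Nkx6-2 (0.53, adjusted p = 0.41) and Tubgcp2 (0.12, adjusted p = 0.491), did not pass. Nor did those of L1td1, Inadl (0.49, adjusted p = 0.156) and Kank4 (0.01, adjusted p = 0.972, sign turned in 10 of 20 alternatives, both scalings included).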

How the data were processed

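Polyadenylated RNA of 4 mEpiSC and 4 mESC libraries was prepared with TruSeq, per the labels' protocols. For each library the authors deposited a table of FPKM per gene, a 95% interval and a status. The submitters' processing notes name TopHat2 2.0.6, Cufflinks 2.0.2 and mm9. The annotation, the options and the handling of strand were not given in the sources used here. The 7 members and all lists were chosen with earlier results of these data known.

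Of 23699 entries, 248 symbols at several loci (712 entries) were left out. The test was limma 3.58.1 with statmod 1.5.0 in R 4.3.3, with trend and robust settings, on log2(FPKM + 1) of the 11556 genes that reached 1 FPKM in 4 or more libraries, and p-values were adjusted over all of them. A pseudocount of 1 understates changes of low genes. Lines were compared in a fit with 1 mean per line, which assumes that single libraries vary like the others. Implied fragments came from the deposited intervals; genes under 100 such fragments gave whole numbers for 80.2% to 81.0% (tolerance 0.05), so depth is an estimate. The code was tested on simulated data.

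Named genes were the 7 members, tested POU and SALL genes, up to 3 called genes of largest change per other list, the 3 most similar profiles per member and the nearest tested genes. A few of these genes are not reported here. Other genes (Sox2, Nanog, Nr5a2, Sp1, Sp3, Chd4, Tet2, Zfp148, Lin28a, Sall3, Cd247) were named after their values were seen. Shared 50-base windows were counted in GENCODE vM21 transcripts, and upstream sequences came from RefSeq (GRCm38.p6), matched for 6 of 7 members by symbol; mm9 and GRCm38 positions were never combined.

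Replicate numbers are shared between states. Deviations of same-numbered libraries from their state means correlated at 0.22, 0.15, 0.18 and 0.51 for numbers 1 to 4, against at most 0.12, 0.21, 0.21 and -0.22 with another number. All exceed 0.1, the rule by which the numbers were taken as pairs, but numbers 2 and 3 correlated higher with another number. Only numbers 1 and 4 correlated highest with their own. The labels name no pairs, and same-numbered libraries are of different lines. The pairing rests on the data alone, and the paired fit is given as an alternative only.

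Alternatives were pseudocounts of 0.1 and 5, no filter, median ratio and quantile scaling, a block per replicate number, a random block per cell line (consensus correlation 0.47), a contrast of the line means, voom, a fibroblast covariate, leaving out both replicate 4 libraries and each library in turn. Averaging the libraries of each line was added after seeing the data.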

Additional observations from a re-analysis of the deposited data

Results flagged for a closer look

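Sall1 in the mESC libraries was flagged because a single library stood far from the other 3. The ESF175/1 library mESC 3 had 42.58 FPKM, against 27.2 to 28.6 FPKM in mESC 1, 2 and 4, a gap of 0.91 of the whole range, above the 95% limit for 4 samples. The other ESF175/1 library, mESC 4, was the lowest of the 4. Such a gap was looked for in 14 groups, 7 genes in each of 2 states, and chance flags about 1 in 20.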

How the results depend on the processing

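Over the 7 members and 20 alternatives, Pou5f1, Pou2f1 and Sall1 did not pass between states. The number of members that rose was 1 without both replicate 4 libraries and 0 to 1 when single libraries were left out, the riser being Sall4. The number that fell was 1 with a random block per line, 0 with libraries averaged per line (chosen after seeing the data), and 1 to 2 with single libraries left out. Over all genes, averaging per line gave 865 higher and 557 lower, the random block 1046 lower, and leaving out single libraries 1904 to 2820 higher and 1209 to 1969 lower. With the replicate block, which pairs the libraries, 3150 genes were higher and 2055 lower, and 3 members fell, with Zfp281 added; the block changed no other member's call, and its effect on listed genes stands beside them. Leaving out single libraries, 16 to 1497 genes were called between mESC lines (88 with all) and 52 to 2215 between mEpiSC lines. These ranges do not cover mEpiSC 1 and mEpiSC 4, each the only library of its line, which were never left out of the line fits. The mEpiSC line count was 185 with a pseudocount of 0.1, 566 with 5, 466 without a filter and 186 with median ratio scaling. The causes were not tested.

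The following log2 fold changes turned sign, none past the threshold. With the fibroblast covariate Sall4 was -0.24, Pou2f1 -0.23, Pou3f1 0.0086 and Chd4 -0.13. Without both replicate 4 libraries Sall1 was 0.24, Nanog 0.24, Tcf19 -0.0215 and Creg1 -0.0210. Nanog was 0.15 without mEpiSC 4 alone. With median ratio scaling Tcf19 was -0.0919 and Kank4 -0.0439. With quantile normalization Tcf19 was -0.15, Creg1 -0.0866, Kank4 -0.0828 and Zfp148 -0.0031. With the random block per line Tcf19 was -0.0073 and Kank4 -0.0272, and in both fits by line Tcf19 was -0.0174 and Kank4 -0.0570. Tcf19 was -0.18 with voom, and Kank4 -0.0007 with a pseudocount of 5. Leaving out single libraries, the values ran from -0.49 to 0.30 for Sall1, -0.0561 to 0.39 for Pou2f1, -0.30 to 0.0528 for Pou3f1, -0.14 to 0.20 for Tcf19 and -0.13 to 0.15 for Kank4. Depth is an estimate, and 4 libraries per state from 2 or 3 lines limit the precision.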
